A study of Mus musculus with 24 samples.

Results

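The genes described here are 9 markers of cholangiocytes, the epithelial cells that line the bile ducts, and of the ductular reaction: Krt7, Krt19, Epcam, Sox9, Krt23, Prom1, Cldn4, Cldn7 and Muc1. They are 9 of the 23972 genes in a table of liver RNA-Seq counts, were found there by gene symbol, and were selected on counts of these same libraries, since the differences between the 4 groups were known when they were proposed. Their differences between groups are therefore given as a description, without a test. The study examined whether gene therapy with FGF21, a hormone made mainly by the liver, alters metabolism in obese and in lipodystrophic mice. FGF21 was given alone or with a soluble TGF-beta receptor, at several housing temperatures. The paper places its liver RNA-Seq in the experiment with FGF21 alone, at the coolest of these temperatures.

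Liver RNA came from 24 adult female mice fed a high-fat diet, with 1 library per mouse. Control mice carried loxP-flanked Lmna alleles without Cre (Lmna fl/fl Adipoq-Cre-), and ADKO mice carried the same alleles with Adipoq-Cre (Lmna fl/fl Adipoq-Cre+), which deletes Lmna, the gene of lamin A/C, in adipocytes and leaves a mouse with little adipose tissue. Hepatic Lmna is not the target, so its liver level does not check the genotype. Each genotype received vehicle or an AAV8 vector, which gave 7 control mice with vehicle, 3 control mice with FGF21, 6 ADKO mice with vehicle and 8 ADKO mice with FGF21. In the labels the vector groups carry the word rescue, taken here to mean FGF21 because of the study's methods. Reads counted on Fgf21 did not set those groups apart, with mean levels of 4.78 CPM (read counts scaled to a library of 1000000 reads) in FGF21 controls against 4.01 in vehicle controls and 5.36 in FGF21 ADKO mice against 7.99 in vehicle ADKO mice. For its experiment with FGF21 alone, the paper reports that plasma FGF21 rose after transduction, and more in ADKO than in control mice. Whether reads on Fgf21 include the vector transcript was not tested. Libraries are numbered within their group.

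Bile ducts arise from the same embryonic progenitors as hepatocytes, and cholangiocytes modify bile by moving ions, water and bile acids. In injured liver, small ductules expand at the portal tract, and hepatocytes can switch on some biliary genes such as Sox9. Keratins 7 and 19 are the intermediate filament proteins by which ducts are told from hepatocytes, which carry keratins 8 and 18. Epcam encodes an epithelial adhesion protein, Cldn4 and Cldn7 encode claudins of tight junctions, Muc1 encodes a mucin of the apical membrane, and Prom1 encodes a membrane glycoprotein of progenitor cells. In whole liver, fewer cells of a type and less RNA per cell cannot be told apart.

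Promoter sequence is shown for 3 of the 9 genes: Muc1, which alone met the call used for all genes; Cldn4, whose difference between genotypes was the largest of the 9 on the log2 scale with vehicle; and Krt23, which differed in the opposite direction. Each line gives the 250 bases upstream of the RefSeq transcription start on GRCm38.p6, 5′ to 3′ on the gene's strand, and capitals mark matches to the motifs searched.
Muc1, chr3:89228806-89229055, plus strand: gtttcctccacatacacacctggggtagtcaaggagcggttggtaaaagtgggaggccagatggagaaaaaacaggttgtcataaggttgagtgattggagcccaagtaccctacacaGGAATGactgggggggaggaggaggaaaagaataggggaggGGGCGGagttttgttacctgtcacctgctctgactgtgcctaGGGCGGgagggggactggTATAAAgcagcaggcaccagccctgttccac
Cldn4, chr5:134946935-134947184, minus strand: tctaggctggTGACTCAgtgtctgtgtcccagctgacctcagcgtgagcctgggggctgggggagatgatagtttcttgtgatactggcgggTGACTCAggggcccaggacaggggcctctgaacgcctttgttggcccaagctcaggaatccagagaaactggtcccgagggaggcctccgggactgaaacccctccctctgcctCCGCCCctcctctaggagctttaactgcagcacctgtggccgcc
Krt23, chr11:99493121-99493370, minus strand: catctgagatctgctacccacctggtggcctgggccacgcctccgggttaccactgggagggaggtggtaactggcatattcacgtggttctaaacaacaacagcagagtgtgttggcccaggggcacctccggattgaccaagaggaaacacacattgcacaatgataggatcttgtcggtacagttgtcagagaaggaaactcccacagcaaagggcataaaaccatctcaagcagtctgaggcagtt
The motifs were the GC box GGGCGG, the AP-1 site TGANTCA, the TEAD site GGAATG and the TATA box TATAAA, searched on both strands. Muc1 held GC boxes 49 and 91 bases upstream of its start, a TEAD match 132 bases upstream and a TATA box 31 bases upstream. Cldn4 held AP-1 matches 158 and 240 bases upstream and a GC box 44 bases upstream. Krt23 held none of these letters in this window. Upstream windows were found for 7 of the 9 genes, of which 6 held a GC box, 2 an AP-1 match, 2 a TEAD match and 1 a TATA box. Among all 32851 windows of the same length, these motifs occurred in 32.7%, 6.75%, 12.6% and 12.4%. A gene was counted if any of its windows matched, and Prom1 and Cldn7 had more than 1 window. The counts per gene and the shares per window are therefore unlike measures. A match is a description of the sequence, not a binding site.

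Some libraries stood apart before any comparison was made. Control vehicle library 3, control FGF21 library 3 and ADKO FGF21 library 7 had values of 15.4 to 69.0 on the second principal component, which held 20.7% of the variance, against -25.3 to 9.36 in the other 21 libraries. Their expression also depended more on gene length, with a slope of -0.331 to -0.154 log2 units per doubling of exonic length against -0.109 to 0.128. Control vehicle library 3 stood apart least, at 15.4 on the component and a slope of -0.154. Libraries that were kept reached -25.3 and 0.128 on the other side of 0. ADKO FGF21 library 3 had the highest level of its group for 7 of the 9 biliary genes, and of all 24 libraries for 4. Where the call of a gene named here changes without these 4 libraries, both values are given. That set of 4 was chosen after the data were seen, ADKO FGF21 library 3 for its levels of these very genes.

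All 9 genes were detected, but 8 of them at low levels. Per kilobase of exon, Krt23 was the most abundant in every group, at 14.1 ± 9.68 CPM (SD, n = 7) in vehicle controls, where Epcam, the next, was at 0.798 ± 0.244. The SD ranges of Krt23 and Epcam did not overlap in any group. Below Krt23 the order ran from Epcam and Krt19 down to Krt7, at 0.0897 ± 0.0267 CPM per kilobase in vehicle controls, and every gene overlapped its neighbor in the order within 1 SD in every group. Counts set the precision: Cldn4 had 2 to 9 reads per library in vehicle controls, Krt7 7 to 18 and Krt19 14 to 24, from totals of 19863304 to 21510054 reads per library.

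In vehicle-treated mice, 7 of the 9 genes were higher in ADKO than in control livers and 2, Krt23 and Prom1, were lower. Their log2 fold changes had a median of 0.71, against 0.0027 over all genes. A call required an adjusted p under 0.05 and a fold change above 1.5 in edgeR's quasi-likelihood test over all genes. Of all genes, 8.48% met it, and of the 9, Muc1 did. Since these genes were chosen with this contrast known, nothing is read from that count.

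Among the keratins of bile ducts, Krt19 levels ran from 0.681 CPM through a median of 0.921 to 1.33 in vehicle controls and from 1.44 through 1.62 to 2.18 in vehicle ADKO mice. The 6 ADKO libraries all lay above the 7 controls, by a log2 fold change of 0.90 ± 0.36 (SE). Krt19 was 1 of the 9 genes without overlap between these groups, and of all genes 4.22% lay without overlap on the higher side in ADKO mice. Krt7 ran from 0.318 through 0.663 to 0.877 CPM in controls and from 0.586 through 0.997 to 1.62 in ADKO mice. Here 5 of 6 ADKO libraries lay above every control, with a log2 fold change of 0.71 ± 0.35.

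Epcam, the adhesion protein gene, spanned 1.07 to 2.65 CPM in vehicle controls, with a median of 1.80, and 2.16 to 3.76 in vehicle ADKO mice, with a median of 2.34. The groups overlapped, and 2 of 6 ADKO libraries exceeded every control (log2 fold change 0.64 ± 0.30). Of the claudins, Cldn4 ran from 0.0937 through 0.181 to 0.439 CPM in controls and from 0.0901 through 0.556 to 1.28 in ADKO mice, a log2 fold change of 1.41 ± 0.51. The ADKO livers split, with 4 above every control and 2 at 2 reads each, as low as the lowest controls. Cldn7 ran from 0.344 through 0.460 to 0.937 CPM in controls and from 0.676 through 0.975 to 1.25 in ADKO mice, a log2 fold change of 0.83 ± 0.32 with 3 of 6 ADKO libraries above every control.

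Muc1, the apical mucin gene, was at 0.492 to 1.11 CPM in vehicle controls, with a median of 0.783, and at 1.02 to 1.97 in vehicle ADKO mice, with a median of 1.37. ADKO livers were higher except that the lowest ADKO library fell below the highest control, and the log2 fold change was 0.88 ± 0.28. Sox9, the transcription factor of duct cells and of hepatocytes that take on biliary traits, ran from 0.934 through 1.51 to 5.25 CPM in controls and from 2.19 through 2.97 to 3.19 in ADKO mice. Control library 4 was higher than every ADKO library, and the log2 fold change of 0.46 ± 0.33 became 0.88 without it.

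Krt23 and Prom1 differed the other way. Krt23, a keratin that hepatocytes can induce under stress, ran from 2.31 through 23.4 to 38.1 CPM in vehicle controls and from 6.34 through 9.77 to 15.2 in vehicle ADKO mice. Of the controls 4 were above every ADKO library and 1 was below them all, and the log2 fold change was -1.14 ± 0.48. Prom1 ran from 1.07 through 2.04 to 8.15 CPM in controls and from 0.856 through 1.56 to 1.88 in ADKO mice, a log2 fold change of -1.09 ± 0.40 that was -0.63 without control library 4. In both genes the controls spread more widely than the ADKO mice, with SDs of 15.1 against 3.40 CPM for Krt23 and of 2.56 against 0.390 for Prom1.

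**Figure D1:**
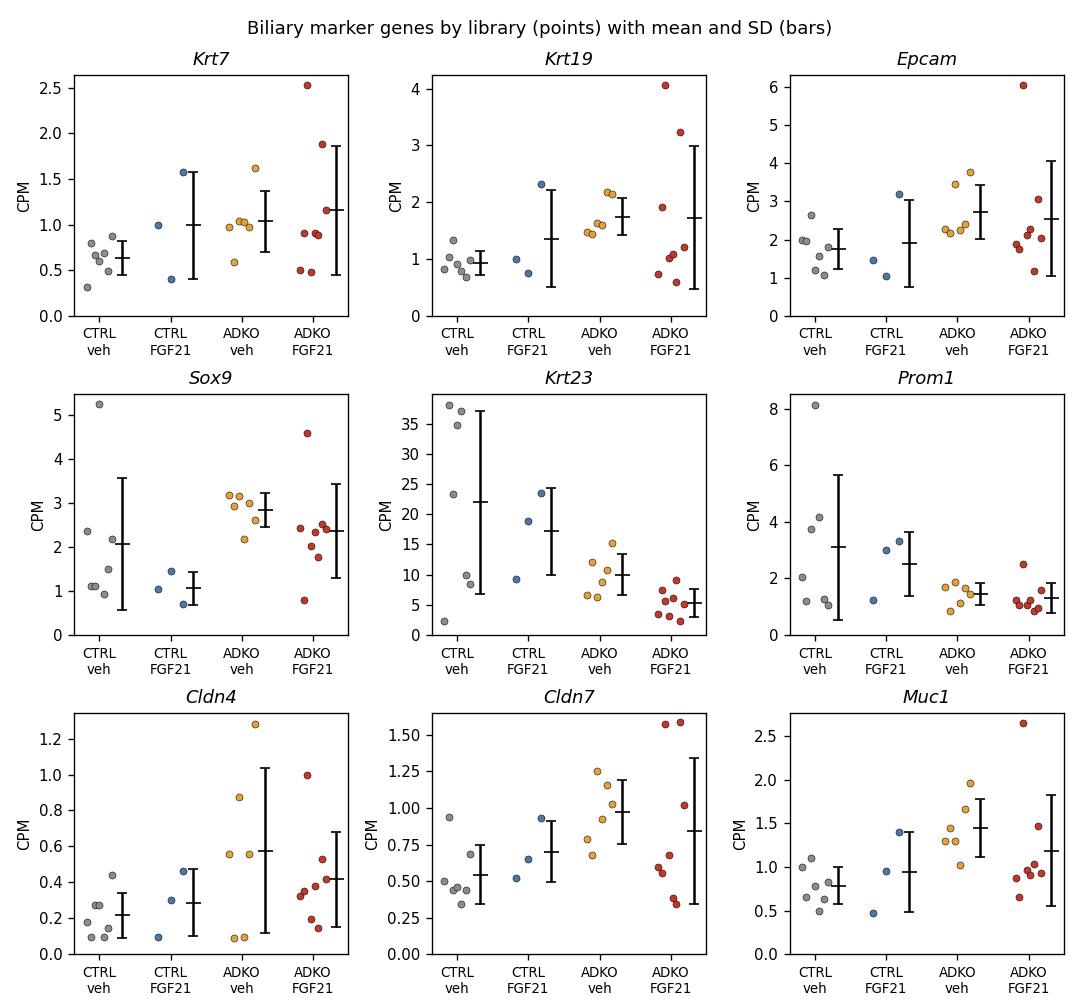
Level of each of the 9 biliary genes (y axis, CPM, from 0) in each library (points) of the 4 groups (x axis; CTRL is control, veh is vehicle), with the group mean and SD as a bar. Krt19 does not overlap between vehicle groups, at 0.681 to 1.33 CPM in controls and 1.44 to 2.18 in ADKO mice, while Krt23 and Prom1 are lower on average in ADKO mice.

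When the 4 libraries named above were left out, 2128 genes of the table met the call, and 5 of the 9 did, each with a smaller standard error than with all libraries: Krt19 at 1.01 ± 0.23, Epcam at 0.77 ± 0.19, Cldn4 at 1.48 ± 0.50, Cldn7 at 0.79 ± 0.28 and Muc1 at 0.99 ± 0.22 on the log2 scale. Of these 4 libraries, the vehicle groups hold control library 3 alone, and the others act through the shared estimate of the spread. Muc1 lost its call in 6 of 24 fits that left out 1 library, those without control vehicle library 2, 5 or 6 or ADKO vehicle library 2, 5 or 6, where its log2 fold change was 0.77 to 0.88. The libraries' animal numbers have 3 digits in 6 of 7 vehicle controls and 4 digits in 5 of 6 vehicle ADKO mice, so number series and genotype nearly coincide, and neither series holds enough mice of both genotypes for a value of its own. With the series as a covariate 0 of the 9 genes met the call, and 1604 genes of the table did.

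With FGF21, the same 7 genes were higher on average in ADKO than in control livers and the same 2 lower. The median log2 fold change was 0.36, against 0.018 over all genes, and 0 of the 9 met the call, which 2.88% of all genes met. Animal numbers had 4 digits in all 3 of these controls and in 4 of 8 ADKO mice, so number series and genotype overlap here too. Krt23 was at 9.27, 18.8 and 23.5 CPM in the 3 FGF21 controls and ran from 2.29 through 5.41 to 9.19 in the 8 FGF21 ADKO mice. The groups did not overlap, as with 2.37% of all genes that lay wholly lower in ADKO mice, and the log2 fold change was -1.69 ± 0.55.

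Sox9 was at 1.05, 1.45 and 0.699 CPM in the FGF21 controls and ran from 0.805 through 2.37 to 4.60 in the FGF21 ADKO mice. Of the ADKO livers 7 of 8 exceeded every control, and the log2 fold change was 1.14 ± 0.46. The groups overlapped for the other 7 genes. Krt19 was at 0.998, 0.749 and 2.33 CPM in controls and from 0.590 through 1.15 to 4.06 in ADKO mice, a log2 fold change of 0.37 ± 0.44. Control FGF21 library 3, one of those that stood apart, had the highest level of its group for 8 of the 9 genes. Without it the log2 fold change of Krt19 was 0.98, of Epcam 1.01 against 0.44 with it, and of Cldn4 1.08 against 0.58. The value fell to 0.032 for Krt19 and 0.10 for Epcam without ADKO FGF21 library 3. For Cldn4 it fell to 0.15 without control FGF21 library 1.

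FGF21 was next set against vehicle within each genotype. In ADKO mice 8 of the 9 genes were lower on average with FGF21 and Krt7 was higher, with a median log2 fold change of -0.21 against 0.0038 over all genes. Without ADKO FGF21 library 3, Krt7 was lower too, at -0.13. None met the call, nor did any gene of the table (0%) in edgeR, where 1608 had an unadjusted p under 0.05, and DESeq2 called 15. Krt23 had the largest difference, a log2 fold change of -0.90 ± 0.47, and 6 of 8 FGF21 livers were below every vehicle liver. In control mice 6 genes were higher with FGF21 and 3 lower, with a median of 0.25 against 0 over all genes, and 0 of the 9 met a call that 0.0542% of all genes met. Animal numbers had 4 digits in all 3 FGF21 controls and 3 digits in 6 of 7 vehicle controls. Treatment and number series therefore nearly coincide in controls and cannot be told apart. Sox9 differed most, at -0.95 ± 0.46, and was at -0.52 without control vehicle library 4. Krt7 was at 0.63 ± 0.44, and at 0.15 without control FGF21 library 3. Without that library Krt19 was at -0.092, Epcam at -0.47, Cldn4 at -0.13 and Muc1 at -0.14, so that of the 9 genes Krt7 and Cldn7 stayed higher.

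These comparisons share groups with the genotype comparisons, so their values are not independent of them. The control groups, where treatment and number series nearly coincide, also enter the interaction of genotype and treatment. That interaction, fitted in the same model, called 0 of the 9 genes and 1 gene of the table (0.00417%). Its value was -0.84 ± 0.84 for Cldn4, -0.54 ± 0.56 for Krt19 and 0.69 ± 0.56 for Sox9. Leaving out control FGF21 library 3 gave -0.33 for Cldn4 and 0.081 for Krt19, and leaving out control vehicle library 4 gave 0.26 for Sox9.

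**Figure D2:**
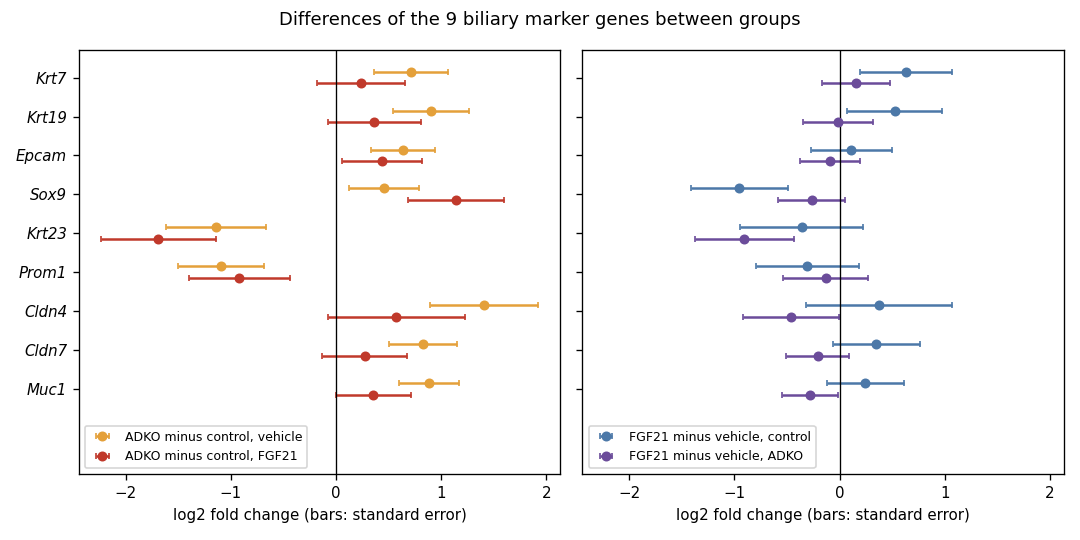
Log2 fold changes of the 9 genes (x axis; bars are standard errors) between genotypes with vehicle or FGF21 (left) and between FGF21 and vehicle in control or ADKO mice (right). In vehicle mice the 7 higher genes lie between 0.46 for Sox9 and 1.41 for Cldn4, with Krt23 at -1.14 and Prom1 at -1.09.

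ADKO FGF21 library 3 carried much of the spread among FGF21-treated ADKO mice. Its levels were 6.06 CPM for Epcam, where the other 7 livers reached at most 3.06, 4.60 for Sox9 against at most 2.53, and 2.65 for Muc1 against at most 1.47. Without it the log2 fold change of FGF21 against vehicle in ADKO mice was -0.34 ± 0.30 for Krt19, in place of -0.013, -0.42 ± 0.24 for Epcam, in place of -0.089, and -0.58 ± 0.23 for Muc1, in place of -0.28. Without all 4 libraries it was -0.68 ± 0.22 for Krt19, -0.54 ± 0.19 for Epcam and -0.70 ± 0.22 for Muc1. Library 3 was picked for its high levels of these genes, so leaving it out lowers their values by selection. None of the 9 genes met the call in either fit, while 61 genes of the table did without that library and 199 without all 4.

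In the same liver the summed level of 20 other biliary genes was 542 CPM, the highest of its group, where the next liver was at 405 CPM. Spp1 alone gave 224 CPM of that sum, against at most 86.4 CPM in the other 7 livers. The sum of 8 stellate cell markers was 419 CPM, also the highest. The 6 hepatocyte markers of this liver summed to 65223 CPM, the lowest of its group, and its 6 mesothelial markers to 2.07 CPM, within the group's range of 0.532 to 3.57. The part of these cell types in the result was not tested.

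**Figure D3:**
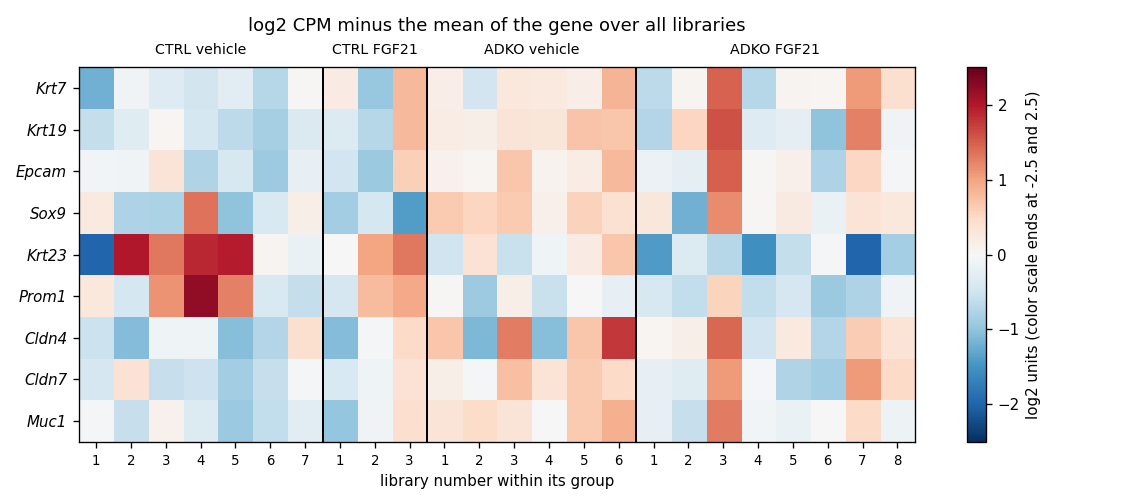
Log2 CPM of each of the 9 genes (rows) in each of the 24 libraries (columns, numbered within their group), as the difference from the gene's mean over all libraries. ADKO FGF21 library 3 is the highest of its group in 7 rows, control vehicle livers are low in most rows other than Krt23 and Prom1, and those 2 rows do not follow the others.

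The 9 genes did not vary as 1 group across livers. After the group means were removed, the pairs among Krt7, Krt19, Epcam, Cldn4, Cldn7 and Muc1 had a median Pearson r of 0.63 over the 24 libraries (range 0.45 to 0.82), and 0.51 without ADKO FGF21 library 3. Sox9 correlated with those 6 genes at a median r of 0.17, and pairs that include Krt23 or Prom1 had a median of 0.16. Without that library these medians were -0.060 and 0.022. The libraries share depth and tissue composition, so these are descriptions. Among 12486 other genes, the 5 most like the mean level of the biliary genes with mean log2 CPM of at least 0 over the 24 libraries were Loxl1 (r of 0.76), Paqr7 (0.76), Fkbp11 (0.76), Itga8 (0.76) and Tuba8 (0.75). Group means were not removed for this ranking, and Krt7, Cldn4 and Cldn7 fell below that level and were left out. The mean level thus joined Krt19, Epcam, Sox9, Krt23, Prom1 and Muc1, of which Krt23 and Prom1 differed the other way between genotypes.

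A wider list of 20 other genes of biliary epithelium, tested in the same fit, gave 7 that rose and 1 that fell in ADKO against control livers with vehicle, where 5.12% of all genes rose and 3.36% fell. The median log2 fold change of the 20 was 0.51, against 0.0027 over all genes. This list and the other lists used here were also chosen with earlier results of these data known. Their counts and p-values are therefore descriptions and no independent support. Slc10a2 encodes the apical transporter by which cholangiocytes and ileal cells take up bile acids. It ran from 1.12 CPM to 5.57 in vehicle controls and from 15.0 to 36.4 in vehicle ADKO mice, without overlap, and rose by a log2 fold change of 3.22 ± 0.31 (edgeR, adjusted p = 4.04e-07). Spp1, the gene of osteopontin, ran from 23.3 to 45.3 CPM in controls and from 78.7 to 186 in ADKO mice and rose by 1.83 ± 0.31 (edgeR, adjusted p = 0.000302).

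Cd24a, a surface glycoprotein gene of progenitor and duct cells, went from a mean of 2.74 to 5.87 CPM and rose by 1.10 ± 0.23 on the log2 scale (edgeR, adjusted p = 0.00137), with all 6 ADKO livers above all controls. Tspan8, a tetraspanin gene, rose by 1.37 ± 0.39 (edgeR, adjusted p = 0.017), a call lost without ADKO vehicle library 3 (1.13, adjusted p = 0.0613). Bicc1, an RNA-binding protein gene mutated in cystic disease, rose by 0.89 ± 0.25, and Ehf, an epithelial transcription factor gene, by 1.22 ± 0.35. Cftr, the chloride channel gene, also met the call at 0 to 8 reads per ADKO library and 0 to 1 per control library, too few for a fold. Cldn3, a claudin that hepatocytes also express, was at 130 CPM on average in controls and 72.9 in ADKO mice and fell by 0.83 on the log2 scale (SE 0.16, edgeR, adjusted p = 0.000663).

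Several others of the 20 genes did not pass the test with vehicle. Pkhd1, the fibrocystin gene of cholangiocyte cilia, had a log2 fold change of 0.42 ± 0.18. Aqp1, the water channel gene, was at 0.058 ± 0.13, and Slc4a2, the anion exchanger gene, at 0.017 ± 0.10. The mean log2 CPM of these genes was 7.14 and 4.97, against 1.13 for Epcam. The part of duct cells in these levels was not tested. Slc5a1, a sodium and glucose cotransporter gene, was at 0.59 ± 0.26 (edgeR, adjusted p = 0.134) and passed without the 4 libraries (0.60, adjusted p = 0.0407). Sctr, the secretin receptor gene, had a mean of 0.131 CPM in controls and 0.156 in ADKO mice, near the 0.124 to 0.176 CPM that 3 reads correspond to, so no difference was detectable at this depth.

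With FGF21, Slc10a2 and Cd24a of the 20 rose in ADKO against control livers, at 3.65 ± 0.46 (edgeR, adjusted p = 5.9e-05) and 1.04 ± 0.30 (edgeR, adjusted p = 0.0447), where 1.61% of all genes rose and 1.26% fell. None of the 20 fell. All 8 ADKO livers lay above all 3 controls for both genes. Cd24a did not hold its call in 14 of 24 fits that left out 1 library, nor without the 4 libraries (0.67, adjusted p = 0.288). Spp1 was also above all controls in 8 of 8 ADKO livers, at 1.41 ± 0.41 with an adjusted p of 0.0526 in edgeR, and at 0.99 ± 0.23 without ADKO FGF21 library 3 (adjusted p = 0.0141, passed). It did not pass without the 3 libraries that stood apart on the second component (1.49, adjusted p = 0.165) or without all 4 (1.03, adjusted p = 0.111).

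In edgeR and in DESeq2, 0 of the 20 genes passed between FGF21 and vehicle in either genotype, and 1 in controls and 0 in ADKO mice had an unadjusted p under 0.05 in edgeR. Spp1 had a log2 fold change of -0.51 ± 0.29 in ADKO mice (edgeR, adjusted p = 0.725). Without ADKO FGF21 library 3, where Spp1 was at 224 CPM against 44.9 to 86.4 in the other 7 livers, it was -0.93 ± 0.17 with an adjusted p of 0.0187 in edgeR. Without all 4 libraries, Spp1 was at -0.90 and Tspan8 at -1.12, and both passed. ADKO FGF21 library 3 was picked for its biliary levels and was the highest of its group for both genes. Leaving it out lowers these values by selection, so the passes are descriptions and not tests. The difference between genotypes in the response of Spp1 was -0.41 ± 0.48 (interaction, edgeR, adjusted p = 1).

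**Figure D4:**
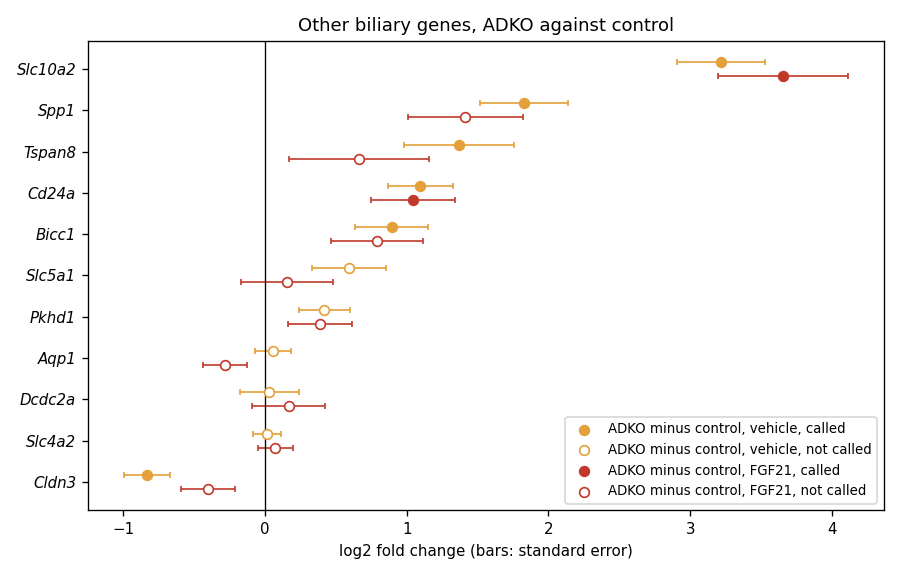
Log2 fold changes of ADKO against control (x axis; bars are standard errors) with vehicle and with FGF21, for other biliary genes whose mean log2 CPM is at least 0. Filled points met the call: Slc10a2 at 3.22 and 3.65, and Spp1, Tspan8, Cd24a, Bicc1 and Cldn3 with vehicle alone or, for Cd24a, with both.

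Keratins outside the 9 genes were measured for 10 of the 12 listed, and 3 rose with vehicle. Krt8, which hepatocytes and ducts share, ran from 130 to 232 CPM in vehicle controls and from 323 to 436 in vehicle ADKO mice and rose by 0.96 ± 0.18 (edgeR, adjusted p = 0.000381). With FGF21 it rose by 0.83 ± 0.23 (edgeR, adjusted p = 0.0322), a call lost without ADKO FGF21 library 3 or either of control FGF21 libraries 1 and 2. Its partner Krt18 was at 0.52 ± 0.16 with vehicle, below the fold threshold, with an adjusted p of 0.0292 in edgeR. Krt20 was at 6 to 90 reads in each vehicle ADKO library and at 0 to 1 in each vehicle control library, and Krt79 at 2 to 6 and 0 to 3. Both met the call, at counts too low for a fold. In FGF21 ADKO livers Krt20 was at 0 to 40 reads, the highest in library 3, and the difference from vehicle ADKO livers had an adjusted p of 0.704 in edgeR and of 0.03 without the 4 libraries. Since library 3 is among those 4, the second value is a description and not a test.

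Of 17 tight junction genes measured, Cldn15 rose, by 1.33 ± 0.40, and Cldn3 and Cldn14 fell in vehicle ADKO livers. Cldn14 fell by 0.74 on the log2 scale (SE 0.15, edgeR, adjusted p = 0.00113). With FGF21, 0 of the 17 passed in edgeR, 7 had an unadjusted p under 0.05 and DESeq2 called 2, and Cldn3 was at -0.40 ± 0.19 and Cldn14 at -0.58 ± 0.18.

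Pathways known to act in duct formation and the ductular reaction were described from lists that were also chosen with earlier results known. Of 15 Notch genes, which specify ducts from liver progenitors, 1 rose and 1 fell with vehicle. Nrarp, a target and feedback inhibitor of Notch, went from a mean of 0.978 to 2.42 CPM and rose 2.46-fold (edgeR, adjusted p = 0.000553), and Dll1, a ligand, fell by 0.72 (SE 0.21, adjusted p = 0.0175), a call lost with the number series as a covariate (-0.58, adjusted p = 0.15). Jag1, the ligand of the portal tract, was at -0.060 ± 0.23, the receptor Notch2 at -0.078 ± 0.15 and the target Hes1 at -0.22 ± 0.19. With FGF21, 0 of the 15 passed in edgeR, 2 had an unadjusted p under 0.05 and DESeq2 called 1.

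Of 14 genes of the YAP and TEAD pathway, whose activity can turn hepatocytes toward a biliary state, 4 rose and 0 fell with vehicle. The secreted target Ccn2 ran from 1.03 to 4.91 CPM in vehicle controls and from 6.34 to 17.3 in vehicle ADKO mice and rose by 1.93 ± 0.27 (edgeR, adjusted p = 2.19e-05). Wwtr1, which encodes the coactivator TAZ, rose by 0.88 ± 0.12 (edgeR, adjusted p = 7.12e-06), and Tead1, a DNA-binding partner, by 0.76 ± 0.16. Tead2 rose by 1.25 ± 0.40, a call lost in 8 of 24 fits that left out 1 library, with 0.65 on the log2 scale without ADKO vehicle library 3, and also without the 4 libraries (1.29, adjusted p = 0.0786). With FGF21, Wwtr1 rose by 0.71 ± 0.15 (edgeR, adjusted p = 0.00559), with all 8 ADKO livers above all controls, a call lost without control FGF21 library 2 (0.64, adjusted p = 0.0559). Ccn2 was at 5.82 to 9.51 CPM in FGF21 controls and 8.96 to 18.3 in FGF21 ADKO mice, a log2 fold change of 0.64 ± 0.32, and its interaction of -1.29 ± 0.40 did not pass (edgeR, adjusted p = 0.981).

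Of 12 TWEAK and hedgehog genes, Tnfrsf12a, the TWEAK receptor through which progenitor cells proliferate, rose with vehicle by 1.39 ± 0.29 (edgeR, adjusted p = 0.00199). Shh and Gli1 had means of 0.0604 to 0.186 CPM over the groups, near the level of 3 reads. Of 7 fetal liver genes, H19 and Afp rose with vehicle. H19, an imprinted RNA, rose by 2.77 ± 0.74 (edgeR, adjusted p = 0.0137), a call lost without ADKO vehicle library 3 (1.94, adjusted p = 0.0709). Afp, the alpha-fetoprotein gene, rose by 0.99 ± 0.28.

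Hepatocyte transcription factors went the other way in vehicle ADKO livers, where all 10 had a negative log2 fold change, with a median of -0.40, and 3 fell, Onecut1 and Foxa2 among them. Foxa2, a factor of liver specification, fell by 0.80 (SE 0.18, edgeR, adjusted p = 0.00347). Without control vehicle library 3, where it was at 57.2 CPM against 21.5 to 31.8 in the other controls, its log2 fold change was -0.59, just past the fold threshold, and without the 3 libraries that stood apart or all 4 it was -0.58, just under it. Onecut1 fell by 1.23 (SE 0.39, edgeR, adjusted p = 0.0349), a call lost in 7 of 24 fits. Of 9 bile acid receptors and pumps, Abcc4, a basolateral export pump, rose by 0.85 ± 0.24, a call lost without ADKO vehicle library 6 (0.72, adjusted p = 0.0535), and Abcb11, the canalicular bile salt pump, fell by 0.70 (SE 0.17, edgeR, adjusted p = 0.00416). With the number series as a covariate the adjusted p was 0.0567 for Foxa2, 0.0631 for Onecut1 and 0.0761 for Abcc4, and these 3 calls were lost. With FGF21, 0 genes passed in edgeR among TWEAK and hedgehog genes (1 at an unadjusted p under 0.05, 0 by DESeq2), fetal genes (3 and 1), hepatocyte factors (4 and 0) or bile acid genes (1 and 0).

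Other cell types that could carry biliary genes were measured through their own markers. Mesothelial cells of the liver surface also express Krt7 and Krt19. Their 6 markers summed to 0.363 to 3.31 CPM in vehicle controls and 0.926 to 4.70 in vehicle ADKO mice. All 6 had a positive log2 fold change, with a median of 0.94. In edgeR and DESeq2 0 passed, 1 had an unadjusted p under 0.05 in edgeR, and Msln was at 0.92 ± 0.60. The mesothelial sum was 0.949 to 5.47 CPM in FGF21 controls and 0.532 to 3.57 in FGF21 ADKO mice. The part of mesothelial cells in the differences of Krt7 and Krt19 was not tested.

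Pancreatic acinar markers summed to 6.71 to 20.1 CPM in vehicle controls and 5.90 to 9.14 in vehicle ADKO mice, where Cela1 and Cela2a fell (Cela1 did not pass in 5 of 24 fits that left out 1 library), Prss2 was at 0 in both groups, and Pnlip was at 0 in the controls. Gut epithelial markers summed to 82.7 to 167 CPM and 206 to 255 CPM, and of 4 measured Fabp2, an intestinal and hepatic fatty acid carrier, rose by 1.27 ± 0.28 and Lgals4 fell by 0.83 (SE 0.17, edgeR, adjusted p = 0.00134). Lgals4 also fell with FGF21, by 1.34 (SE 0.19, edgeR, adjusted p = 0.000158), and by 0.76 without control FGF21 library 3. Stellate cell markers summed to 240 to 318 CPM in vehicle controls and 301 to 404 in vehicle ADKO mice. Lrat of the 8 rose by 0.74 ± 0.20, while 4 of the 8 had a positive and 4 a negative log2 fold change. The 6 endothelial markers summed to 211 to 276 CPM in vehicle controls and 213 to 266 in vehicle ADKO mice. Of the 6, Lyve1 rose by 1.93 ± 0.21 with vehicle and 1.49 ± 0.27 with FGF21. Log2 fold changes were positive in 4 and negative in 2 with vehicle, and positive in 2 and negative in 4 with FGF21. Hepatocyte markers summed to 72992 to 128659 CPM in vehicle controls and 65750 to 100942 in vehicle ADKO mice, where Cps1 fell by 0.93 (SE 0.20, edgeR, adjusted p = 0.00155), and no Kupffer, lymphocyte or adipocyte marker passed in edgeR in any comparison. With vehicle 3, 2 and 1 of these had an unadjusted p under 0.05, and DESeq2 called 0, 1 and 1.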

How the data were processed

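Liver RNA-Seq of 24 libraries was analyzed. The authors deposited counts of reads per gene without normalization, from polyA-selected, dUTP strand-specific libraries. The submitters' processing notes name cutadapt 4.8, FastQC 0.11.8, STAR 2.7.8a, RSEM 1.3.3 and GRCm38, with no role or order, so the whole-number counts may be rounded estimates. Methods and labels name different sequencing providers. The methods give removal of genes with no count in any sample, and the smallest gene total was 2. The table held 23972 genes, 0 rows that name no gene and 0 columns without a sample. Gene positions are those of GENCODE M21.

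Groups came from genotype and treatment in the labels, and libraries are numbered within a group by their animal numbers. Counts were scaled by TMM and fitted in edgeR 4.0.16 (R 4.3.3) with robust quasi-likelihood over all genes and libraries, with 4 group means and no covariate. Calls required a Benjamini-Hochberg adjusted p under 0.05 over all genes and a fold above 1.5, the study's thresholds. The standard error of a log2 fold change is its size over the square root of the F statistic. TMM library sizes underlie all CPM, with a prior count of 2 on the log2 scale. Depth ran from 19863304 to 21510054 reads, and at TMM library sizes 3 reads are 0.124 to 0.176 CPM. In 67 pairs of libraries within groups the lowest chi-square per degree of freedom was 14.1, and none was merged. The scripts were tested on simulated data.

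The 9 genes and all lists were chosen with earlier results of these data known. Named genes were all 9, Lmna and Fgf21. From each list and comparison, up to 4 called genes with mean log2 CPM of at least 0 were named by absolute log2 fold change. Otherwise the list's 2 most abundant were named. Also named were the 5 genes most like the mean level of those of the 9 with mean log2 CPM of at least 0. Further list genes are named as background, chosen after their values were seen. Some list genes count in their lists but are singly not reported here. Promoters came from RefSeq (GRCm38.p6). Alternatives were DESeq2 1.42.0, its size factors, filterByExpr, the adjusted p alone, only the groups compared, the animal number series as a covariate or restricted to 4 digits, and leaving out libraries. P-values set the difference between group means against the spread between mice within groups.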

Additional observations from a re-analysis of the deposited data

Results flagged for a closer look

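In 22 of 105 groups tested, 1 library lay farther from the others of its group than Dixon's 95% limit allows. For independent, normally distributed values this happens in about 1 in 20 groups. Genes here vary together and were chosen with results of these data known. The rates are therefore not comparable, and the flags are descriptions. ADKO FGF21 library 3, which was picked for its high levels of the 9 biliary genes, accounted for 10 of the 22. Among the 9 biliary genes it stood out for Epcam at 6.06 CPM (the other 7 livers reached 3.06), Sox9 at 4.60 (2.53), Prom1 at 2.53 (1.58), Cldn4 at 0.995 (0.529) and Muc1 at 2.65 (1.47). Beyond them it stood out for Spp1 at 224 CPM (86.4), Tspan8 at 5.97 (2.82), Ccn2 at 18.3 (11.6), H19 at 25.6 (6.63) and Abcc4 at 9.79 (6.23). All 10 were the highest values of their group.

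ADKO FGF21 library 7 stood out for Krt8 at 605 CPM, Cldn3 at 138 and Fabp2 at 524. Control vehicle library 4 was high for Sox9 at 5.25 CPM and H19 at 5.06, control vehicle library 3 was high for Foxa2 at 57.2 and low for Lrat at 6.91, and control vehicle library 6 was high for Tead1 at 10.5. Among vehicle ADKO livers, library 6 was low for Slc10a2 at 15.0 CPM, library 1 high for Cldn3 at 86.0, library 3 high for H19 at 33.5 and library 4 high for Cps1 at 1651.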

How the results depend on the processing

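No paired analysis was possible because the labels give no replicate numbers that groups share. For ADKO against control with vehicle, 2033 genes met the call, and 3623 by the adjusted p alone. Of the 9 biliary genes 1 met it, against 3 under filterByExpr (1991 of all genes) or DESeq2 (2152), 4 with only the groups compared (2199), 0 with the number series (1604), 2 without the 3 libraries that stood apart (2018) and 5 without the 4 (2128). Leaving out 1 library gave 1723 to 2146 genes, 0 to 3 of the 9 (0 without ADKO vehicle library 5 or 6 or control vehicle library 5, and 3 without ADKO FGF21 library 3 or control vehicle library 7) and 6 to 9 other biliary genes.

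With FGF21, the 690 genes called became 348 with only the groups compared, 322 with 4-digit animal numbers, 402 without the 3 libraries and 354 without the 4, and 339 to 1149 on leaving out 1 library (339 without control FGF21 library 3, 416 without control FGF21 library 2 and 1149 without ADKO FGF21 library 7). Of the 9 genes, Krt23 alone met the call under filterByExpr (838 of all genes), DESeq2 (1022) or only the groups compared (1 each), and 0 to 1 did on leaving out 1 library. The 2 other biliary genes became 1 with only the groups compared, the number series, or without the 3 or the 4 libraries, and 1 to 3 on leaving out 1.

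For FGF21 against vehicle in controls, 13 genes became 0 with the number series, 38 by DESeq2 and 3 to 26 on leaving out 1 library. In ADKO mice 0 became 2 with 4-digit numbers, 15 by DESeq2, 199 without the 4 libraries (with 2 other biliary genes), and 0 to 61 on leaving out 1 library (with 0 to 1), 61 being without ADKO FGF21 library 3. The interaction called 1 gene, 2 with DESeq2 size factors or filterByExpr, 0 with the number series, 5 without the 3 libraries, 12 without the 4, 13 by DESeq2 and 0 to 5 on leaving out 1. The causes were not tested. No called value changed sign. Low counts limit Cldn4, Krt7 and Cftr most.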
